A study of Homo sapiens with 6 samples.

Results

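Caspases are the cysteine proteases that carry out apoptosis, and the inhibitor of apoptosis proteins (IAPs) are their natural brakes. The group was chosen by gene name: XIAP, BIRC2, BIRC3, BIRC6, CASP2, CASP6, CASP8 and CASP9, each measured by every array probe set annotated to that gene alone. The choice was made with earlier results of these data known. Of these 8 genes, 7 had such a probe set, out of 19777 genes on the array, and they were covered by 25 of 54613 probe sets tested (10 for 3 inhibitors and 15 for 4 caspases). BIRC3 was not analysed here, since the annotation used assigned no probe set to it alone. All samples were MDA-MB-231 cells, an established line of human breast cancer cells of mesenchymal character. The 3 arrays of the ING2 siRNA group came from cells transfected with an siRNA against ING2, and the 3 arrays of the control siRNA group from cells that received a non-targeting siRNA. A single ING2 siRNA is named in the labels, so effects of its sequence on other transcripts cannot be told apart from effects of ING2 loss. The treatment notes put the harvest at day 4 and the extraction notes at day 3. Whether replicates came from separate cultures is not stated in the labels, and the p-values therefore reflect only how much these samples varied, possibly for technical reasons.

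ING2 is a PHD finger protein that binds trimethylated histone H3 and belongs to a SIN3 histone deacetylase complex. In apoptosis, initiator caspases are activated on adaptor platforms: caspase-8 at death receptors, caspase-9 on the apoptosome that forms when cytochrome c leaves mitochondria, and caspase-2 on the PIDDosome. Caspase-8 and caspase-9 cleave executioner caspases, which dismantle the cell. XIAP directly binds and blocks caspase-9 and some executioner caspases, though not caspase-6, BIRC2 (cIAP1) is a ubiquitin ligase at tumour necrosis factor receptors, and BIRC6 (BRUCE, or Apollon) is a giant ubiquitin-conjugating member of the family. These functions are regulated mainly at the protein level, and the arrays measured messenger RNA only.

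In the deposited values, 2 of the 7 genes were called lower, where 8.29% of all genes on the array were called and 4.67% were called lower. With genes in 10 equal bins by intensity, 11.3% were called lower in the bin of XIAP and 8.04% in that of CASP8. Neither call held after quantile normalization, after cyclic loess or in 4 of 6 fits that left out 1 array. XIAP fell to 66.1% and CASP8 to 73.9% of the control level on their brightest probe sets, while CASP6 stood at 77.8% of control without passing the threshold. The values of CASP2 and CASP9 lay slightly above control and those of BIRC2 and BIRC6 slightly below, none past the threshold.

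The upstream sequences of the 2 genes that fell, XIAP and CASP8, are shown beside those of CASP2 and CASP9, whose brightest probe sets had values above control. Each is the stretch of 250 bases before the most upstream start that RefSeq lists (GRCh38.p14), written 5′ to 3′ on the gene's strand. Capitals mark matches to the GC box GGGCGG, to CCAAT or to TATAAA on either strand, and matches may overlap.
XIAP: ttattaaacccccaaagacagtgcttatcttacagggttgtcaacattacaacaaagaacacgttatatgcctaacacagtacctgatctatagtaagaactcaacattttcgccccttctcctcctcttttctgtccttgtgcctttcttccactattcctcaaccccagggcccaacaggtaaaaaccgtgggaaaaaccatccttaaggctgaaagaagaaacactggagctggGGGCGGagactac
CASP8: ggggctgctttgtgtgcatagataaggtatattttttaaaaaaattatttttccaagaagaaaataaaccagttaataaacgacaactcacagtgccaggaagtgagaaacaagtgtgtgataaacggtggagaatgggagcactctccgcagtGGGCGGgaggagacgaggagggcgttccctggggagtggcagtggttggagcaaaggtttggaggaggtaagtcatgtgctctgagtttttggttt
CASP2: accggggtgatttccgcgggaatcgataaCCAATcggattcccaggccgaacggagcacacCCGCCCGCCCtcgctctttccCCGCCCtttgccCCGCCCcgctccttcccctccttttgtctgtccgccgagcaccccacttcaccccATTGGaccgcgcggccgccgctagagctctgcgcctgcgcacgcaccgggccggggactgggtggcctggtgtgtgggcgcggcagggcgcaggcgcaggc
CASP9: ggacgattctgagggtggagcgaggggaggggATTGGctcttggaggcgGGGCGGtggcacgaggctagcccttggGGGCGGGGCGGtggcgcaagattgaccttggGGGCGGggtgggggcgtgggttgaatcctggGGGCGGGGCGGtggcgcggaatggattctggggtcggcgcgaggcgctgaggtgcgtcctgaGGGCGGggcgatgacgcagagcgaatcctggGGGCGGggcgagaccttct
These windows are chrX:123859458-123859707 (plus strand), chr2:201233213-201233462 (plus), chr7:143288101-143288350 (plus) and chr1:15524791-15525040 (minus). GGGCGG had 1 match each in XIAP and CASP8, 4 in CASP2 and 8 in CASP9. Of the members not printed, CASP6 had 3 matches, BIRC6 had 2, and BIRC2 and BIRC3 had 0. CASP2 and CASP9, above control without passing the threshold, thus had more matches than each measured gene below control. BIRC3 had no measured change, and a link between count and change was not tested. The motif was present in 42.2% of 27326 windows of the same kind. CCAAT had 2 matches in CASP2, 1 in CASP9 and none in the other 6 members, against a share of 33.0% of all windows. TATAAA, found in 11.2% of all windows, had no match in any of the 8 members. The XIAP and CASP8 windows had 44.8% and 45.6% G and C with 4 and 6 CpG dinucleotides, against 52.4% to 76.4% and 11 to 33 in the other 6 members and medians of 57.6% and 10 over all windows. RefSeq listed 3 starts each for XIAP and CASP8 and 1 or 2 for each other member, and only the most upstream was examined. These window values are descriptions of sequence, and no binding or methylation was measured. All 8 members matched the RefSeq table.

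Of the array-wide facts, median intensity lay between 78.3 and 81.4 in the ING2 siRNA arrays, against 75.6 to 77.1 in the control arrays. The spread of log2 intensity differed as well, with an interquartile range of 3.18 ± 0.078 after ING2 siRNA, and 3.35 ± 0.025 in control arrays (mean ± SD, n = 3 each, exact two-sided permutation p = 0.1, the smallest that 3 against 3 arrays allow). ING2 itself read 163, 188 and 161 intensity units after ING2 siRNA, against 1400, 1349 and 1324 units in controls, which left 12.5% of the control level. Markers of the line were bright (VIM, CD44, CAV1 and AXL, at or above percentile 96.2 of genes by intensity), and the luminal markers ESR1, PGR and FOXA1 were dim, at percentiles 40.9, 5.50 and 14.5. The luminal marker GATA3 lay at percentile 55.6. KRT8 and KRT18 (percentiles 98.05 and 99.3), keratins of luminal cells, were as bright as the markers of the line. Summed intensity of 4 fibroblast markers overlapped between the groups (744 to 776 units after ING2 siRNA, 705 to 816 in controls), as did that of 5 blood cell markers (654 to 712 after ING2 siRNA, 628 to 710 in controls). Within these lists LUM and LYZ were called lower (percentiles 45.4 and 19.9) and DCN and CD79A higher (percentiles 37.2 and 47.4). Of the other blood cell markers, the leukocyte marker PTPRC read at most 21.5 units in any array, while CD3E and CD14 lay at percentiles 45.0 and 61.8. The sum of 6 luminal markers did not overlap (18898 to 19285 after ING2 siRNA, 16315 to 18088 in controls). Within it KRT18 alone was apart, at geometric means of 12148 units after ING2 siRNA and 10120 in controls, and was not called. In that direction 22.8% of all genes were apart. ESR1, PGR, KRT8, GATA3 and FOXA1 each overlapped. The part of this sum in the results was not tested.

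XIAP, the inhibitor that blocks caspases by binding them, had 7 probe sets. The brightest, 228363_at, read 986, 1198 and 1184 units after ING2 siRNA, against 1407, 1620.3 and 2122 units in controls. All 3 ING2 siRNA arrays lay below all 3 control arrays, and control replicate 3 was the highest. The log2 change was -0.60 (SE 0.15, 95% interval -0.93 to -0.27, limma adjusted p = 0.0492 over all probe sets). In RNA from whole cultures, fewer cells with the transcript and less of it per cell cannot be told apart. With probe sets in 10 equal bins by intensity, it lay in the brightest bin, where the median change was -0.10 and 8.33% were called lower. A dimmer probe set, 206536_s_at, gave 66.7, 66.5 and 72.0 units after ING2 siRNA, against 81.3, 118.9 and 97.7 units in controls. Here too the groups did not overlap, and the log2 change of -0.52 (SE 0.13) missed the threshold narrowly (limma adjusted p = 0.0502). It lay in an intensity bin whose median change was 0.10.

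The other 5 XIAP probe sets overlapped between the groups, with log2 changes from -0.66 to -0.04. The largest difference was that of 225859_at, at 75.4, 127.9 and 107.0 units after ING2 siRNA, against 235.5, 97.6 and 177.2 units in controls. Control replicate 2 was lower there than 2 of the ING2 siRNA arrays, and the interval of the change was wide (-1.31 to -0.01, limma adjusted p = 0.172). The XIAP probe sets fell into different array patterns. Across the 6 arrays, 225859_at ran with 235222_x_at (Pearson r = 0.966) and with 225858_s_at (r = 0.866), all with control replicate 2 as the lowest control. 228363_at ran with 206536_s_at (r = 0.803) but less closely with 225858_s_at (r = 0.271). With group means removed, these 2 correlations were 0.323 and 0.088. The probe set 206537_at, at 73.2 units after ING2 siRNA and 75.5 units in controls as geometric means, had a change of -0.04 (95% interval -0.33 to 0.24). These correlations rest on 6 arrays that share the group difference and are descriptions.

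**Figure D1:**
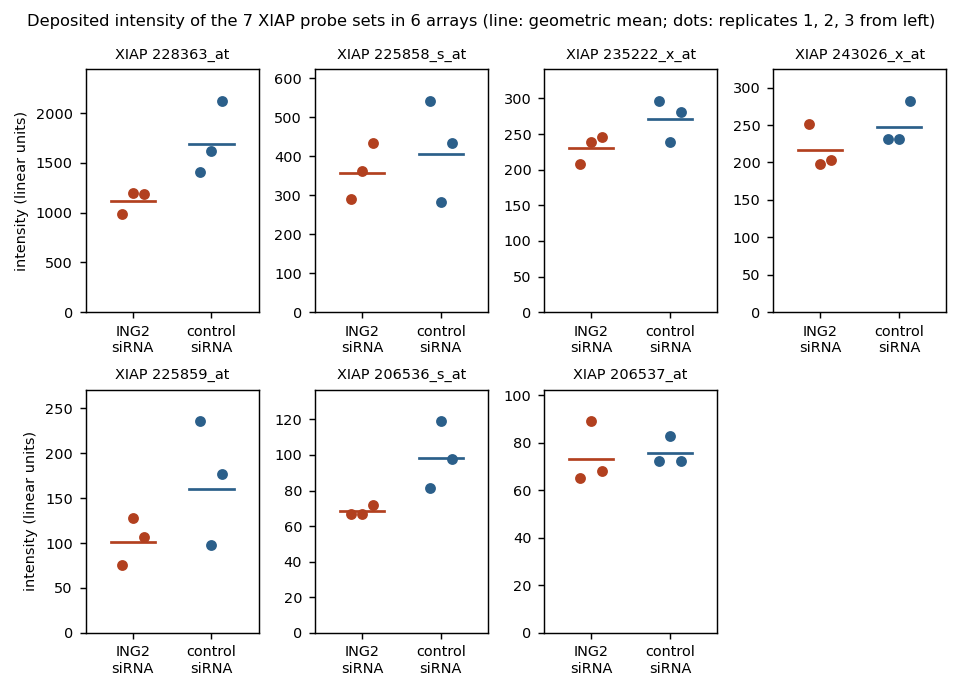
Intensity in linear units (vertical axis, from 0) of the 7 XIAP probe sets in each array, with ING2 siRNA on the left and control siRNA on the right of each panel; points are replicates 1 to 3 from left to right and lines are geometric means. The groups are apart in 228363_at and 206536_s_at and overlap in the other 5.

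BIRC2, the ubiquitin ligase that keeps caspase-8 from being activated at tumour necrosis factor receptors, was measured by 1 probe set. It read 3491, 3742 and 3454 units after ING2 siRNA, against 3713, 4311 and 3965 units in controls. ING2 siRNA replicate 2 exceeded control replicate 1, and the log2 change of -0.16 (SE 0.09, 95% interval -0.37 to 0.04) did not pass (limma adjusted p = 0.264). BIRC6 had 2 probe sets. The brighter, 224635_s_at, read 1321, 1197 and 1403 units after ING2 siRNA, against 1304, 1661 and 1444 units in controls. The change was -0.16 (SE 0.11) for it and -0.10 (SE 0.11) for 233093_s_at, with overlap in both and limma adjusted p of 0.346 and 0.570. The median change in the intensity bin of these 3 was -0.10. In all, the 10 inhibitor probe sets, 7 of them of XIAP, had values below 0, as did 37.5% of all probe sets. That share was not matched for intensity: BIRC2, both BIRC6 probe sets and the brightest of XIAP lay in the brightest bin. There the median was -0.10 with quartiles of -0.25 and 0.03, and the BIRC2 and BIRC6 changes lay between these quartiles. The other XIAP probe sets lay in bins with medians of -0.02 to 0.12. Probe sets of 1 gene are not independent of each other. After quantile normalization BIRC6 233093_s_at had a value of 0.015.

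CASP8, the initiator caspase of death receptor signalling, had 3 probe sets. The brightest, 213373_s_at, read 433, 446.5 and 419.5 units after ING2 siRNA, against 524, 572 and 669.7 units in controls. The 3 ING2 siRNA arrays lay close together, below every control array, and the log2 change was -0.44 (SE 0.10, 95% interval -0.67 to -0.20, limma adjusted p = 0.0457). In its intensity bin the median change was -0.07, and 9.17% were called lower. The second, 207686_s_at, read 105.0, 101.0 and 86.3 units after ING2 siRNA, against 123.8, 115.5 and 113.9 units in controls. These groups did not overlap either, and the change of -0.28 (SE 0.10, 95% interval -0.50 to -0.06) did not pass (limma adjusted p = 0.114). The dimmest, 1553306_at, read 29.0, 26.2 and 23.2 units after ING2 siRNA, against 23.2, 23.3 and 25.4 units in controls. It had a value of 0.12 (95% interval -0.11 to 0.35), close to the median of 0.12 among probe sets as dim as it.

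CASP6, an executioner caspase known for cleaving nuclear lamins, gave the same picture on both of its probe sets. 209790_s_at read 1161, 1162 and 917 units after ING2 siRNA, against 1418, 1333 and 1390.4 units in controls. 211464_x_at read 609, 658 and 592 units after ING2 siRNA, against 685, 773 and 803 units in controls. In neither did the groups overlap. The log2 changes were -0.36 (95% interval -0.60 to -0.12) and -0.28 (95% interval -0.49 to -0.07), with limma adjusted p of 0.0778 and 0.09996, so CASP6 was not called.

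CASP9 encodes the apoptosome caspase. Its brightest probe set, 203984_s_at, had the smallest SD of log2 intensity of the 25 in both groups (0.017 after ING2 siRNA and 0.0087 in controls), while 240437_at had SDs of 0.15 and 0.12. 203984_s_at read 467, 463 and 474 units after ING2 siRNA, against 422, 427 and 427 units in controls. The groups did not overlap, but the difference was small, with a log2 change of 0.14 (SE 0.08, 95% interval -0.04 to 0.31, limma adjusted p = 0.282). Its intensity bin had a median of -0.07. The other CASP9 probe sets had values of 0.08 and 0.03, with overlap.

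CASP2, an initiator caspase that responds to DNA damage and extra centrosomes, had 7 probe sets with log2 changes from -0.01 to 0.36. None passed the threshold, and 1 had a value below 0, against 37.5% of all probe sets. The brightest lay in an intensity bin with a median change of -0.10, and the others in bins with medians of 0.06 to 0.12. The brightest, 226032_at, read 994, 1274 and 1336 units after ING2 siRNA, against 1161, 1138 and 991 units in controls, a change of 0.12 (SE 0.12) with overlap. The next, 209811_at, read 176, 225 and 233 units after ING2 siRNA, against 171, 155 and 164 units in controls. The groups there were just apart, and the change of 0.36 (95% interval 0.10 to 0.62) did not pass (limma adjusted p = 0.0917). ING2 siRNA replicate 1 was the lowest of its group on both. Across the 6 arrays, 226036_x_at and 209812_x_at ran opposite to 226032_at (Pearson r = -0.651 and -0.614).

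**Figure D2:**
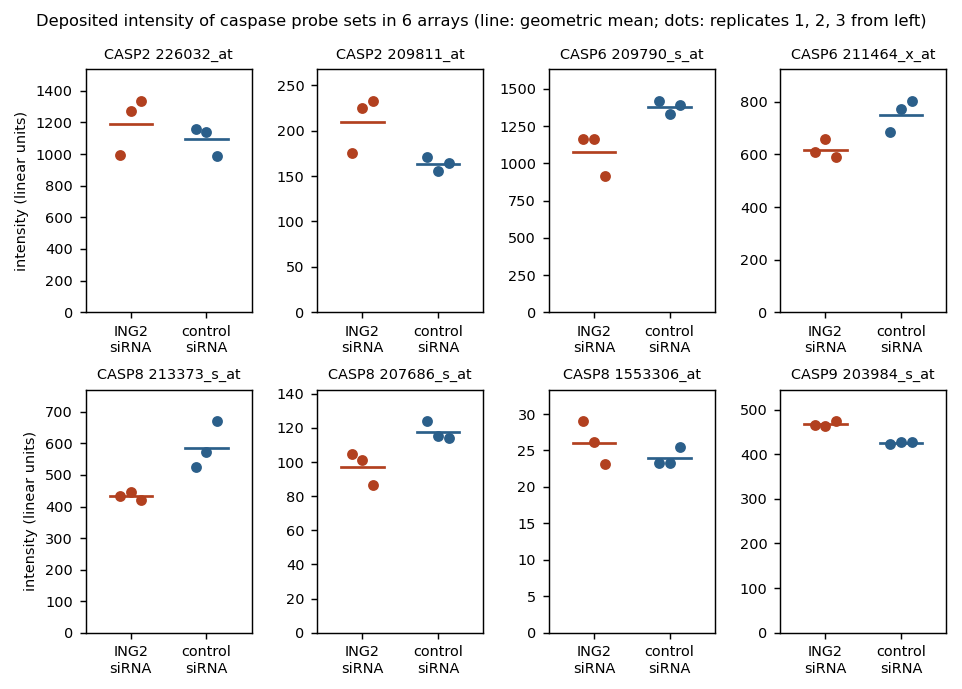
Intensity in linear units (vertical axis, from 0) of 8 caspase probe sets in each array, ING2 siRNA on the left and control siRNA on the right of each panel; points are replicates 1 to 3 from left to right and lines are geometric means. ING2 siRNA arrays lie below all control arrays in both CASP6 probe sets and the 2 brighter CASP8 probe sets, and above them in CASP9 203984_s_at and CASP2 209811_at.

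Over all 25 probe sets, 2 were called lower and 0 higher at a limma adjusted p under 0.05. Over the whole array, 5.28% of probe sets were called, 3.64% lower and 1.64% higher. At an unadjusted limma p under 0.05, 7 member probe sets had values below 0 and 1 above, 32% of the 25 together, against 28% of all probe sets. Groups were apart with ING2 siRNA lower in 6 of the 25 and with ING2 siRNA higher in 2, against 12.3% and 20.5% of all probe sets (32.8% in either direction). The median log2 change was -0.10 over the member probe sets and 0.07 over all probe sets. It was -0.19 over the inhibitor probe sets and 0.06 over the caspase probe sets. With 1 probe set per gene, the brightest, 2 of 7 genes were called lower (XIAP at limma adjusted p = 0.0381 and CASP8 at 0.0349) and 0 higher, against 4.67% and 3.62% of all genes (8.29% in either direction). Groups were apart with ING2 siRNA lower in 3 of the 7 genes (XIAP, CASP6 and CASP8) and higher in 1 (CASP9), against 13.8% and 22.8% of all genes (36.5% in either direction). CASP6 had an adjusted p of 0.0555 in that limma fit. The median was -0.16 over the 7 genes and 0.06 over all genes. With genes in 10 bins by intensity, the bins of the 7 genes had 7.79% to 11.3% called lower. Median changes in these bins were -0.09 to -0.01. With so few members, chosen with earlier results of these data known, these shares are a description.

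**Figure D3:**
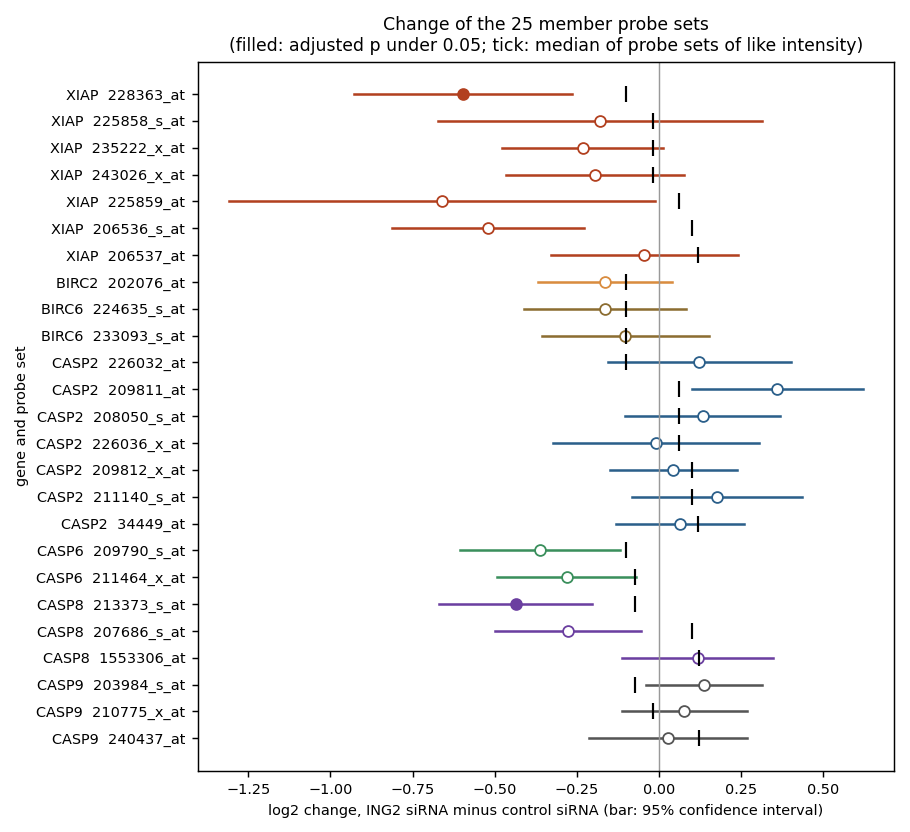
Log2 change, ING2 siRNA minus control siRNA (horizontal axis), of each of the 25 probe sets (rows) with its 95% confidence interval; filled points passed the limma threshold and black ticks give the median change of all probe sets of like intensity. All 10 inhibitor probe sets lie left of 0, and 1 probe set each of XIAP and CASP8 passed.

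Changes over the whole array ran with intensity: the median was 0.08 in the dimmest bin, 0.12 in each of the 4 bins above it and -0.10 in the brightest. XIAP 206536_s_at and 225859_at lay below the 5th percentile of their intensity bins (-0.37 and -0.52), and XIAP 228363_at below that of the brightest bin (-0.51). CASP8 213373_s_at and both CASP6 probe sets lay between the 5th and the 25th percentile. CASP2 209811_at lay above the 95th percentile of its bin (0.32). RNA integrity was read from probe sets at the ends of GAPDH, whose 3′ minus 5′ log2 difference was 0.316 ± 0.042 after ING2 siRNA, and 0.205 ± 0.015 in control arrays (mean ± SD, n = 3 each, exact permutation p = 0.1), with no overlap. The part of this difference in the changes of XIAP, CASP8 and CASP6 was not tested.

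**Figure D4:**
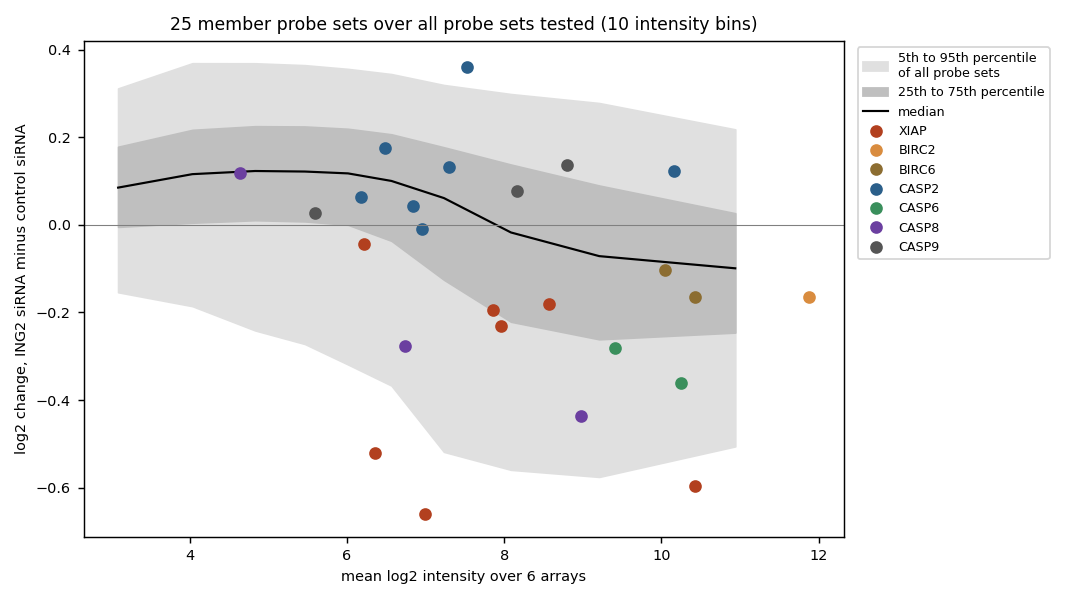
Log2 change, ING2 siRNA minus control siRNA (vertical axis), against mean log2 intensity over the 6 arrays (horizontal axis) for the 25 member probe sets; grey bands and the black line give percentiles and the median of all 54613 probe sets in 10 intensity bins. The line goes from above 0 at low intensity to -0.10 at high intensity, and 3 XIAP probe sets lie below the outer band.

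Probe sets of the same gene were compared within each array, as the log2 difference between the brightest probe set and each other, for 18 pairs. In 4 pairs this difference did not overlap between the groups: XIAP 228363_at with 243026_x_at and with 206537_at, CASP2 226032_at with 209811_at, and CASP8 213373_s_at with 1553306_at. The share over all such pairs of the array was not computed. For XIAP 206537_at the difference averaged 3.93 log2 units after ING2 siRNA and 4.49 in controls. The median change was -0.10 in the intensity bin of 228363_at and 0.12 in that of 206537_at, and the part of this trend was not tested. CASP8 1553306_at read at most 29.0 units in any array and was not tested against background, so no size is given for its pair. All 4 had an exact permutation p of 0.1 (0.45 adjusted over the 18 pairs), the smallest that 3 against 3 arrays allow, so no pair could pass and the test says nothing either way. After cyclic loess 2 of the 18 pairs did not overlap.

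The rest of the caspase pathway was covered by 38 of 42 genes on 7 lists, and the others were not analysed here. In the limma fit over all genes, 0 of the 38 were called higher and 0 lower. At an unadjusted p under 0.05 there were 10 (26.3%, against 32.9% of all genes), and the median log2 change was -0.03. Counts by list stayed at 0 after cyclic loess and after quantile normalization. For death receptors and ligands (9 genes, median 0.11), the values were -0.26 for the decoy receptor TNFRSF10D (limma adjusted p = 0.0761) and 0.32 for the dim FASLG (0.0892). For adaptors and regulators at death receptors (5 genes, median -0.05), they were 0.21 for TRADD (limma adjusted p = 0.121) and -0.15 for FADD (0.211), the adaptor that recruits caspase-8. In the platforms that activate caspase-9 and caspase-2 (4 genes, median -0.08), APAF1, the scaffold of the apoptosome, had a value of 0.30 (limma adjusted p = 0.0809). CRADD, an adaptor of the PIDDosome, had a value of -0.28 (limma adjusted p = 0.137).

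APAF1 read 251, 235 and 241 units after ING2 siRNA, against 174, 227 and 191 units in controls, so the groups were apart although the gene was not called. In either direction, groups were apart in 13 of the 38 pathway genes, against 36.5% of all genes. With ING2 siRNA higher, 22.8% of all genes were apart. IAP antagonists (4 genes, median 0.02) included SEPTIN4 at 0.29 (limma adjusted p = 0.0670), whose ARTS form binds XIAP, and the mitochondrial protease HTRA2 at 0.05 (0.657). The other IAP genes (3 genes, median -0.12) included BIRC5, or survivin, at -0.19 (limma adjusted p = 0.163) and NAIP at -0.12 (0.405). Other caspases (5 genes, median -0.04) included the inflammatory CASP4 at -0.14 (limma adjusted p = 0.368) and CASP1 at -0.09 (0.510). Among caspase substrates (8 genes, median -0.03), the kinase gene ROCK1 came nearest to the threshold, at -0.39 (limma adjusted p = 0.0542). ROCK1, whose cleaved kinase drives membrane blebbing, read 1090, 1376 and 1365 units after ING2 siRNA, against 1530.4, 1831 and 1657 units in controls. GSDME, which forms pores once cleaved, had a value of -0.17 (limma adjusted p = 0.186).

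CASP8 is the neighbour of CASP10 and, beyond it, CFLAR on chromosome 2 in RefSeq order. These relatives, singled out after their values were seen, had values of -0.04 (CASP10, limma adjusted p = 0.809) and -0.12 (CFLAR, 0.393), and neither passed. CASP8 had the smallest p of the 7 genes, and the genes whose 6 array values ran closest to it were GGH (Pearson r = 0.9976), SNX5 (0.9964) and PSPH (0.9960). They were picked from 19776 genes, of which 320 had r over 0.95, and the shared group difference makes up much of such a correlation. Among the members, XIAP ran closest to CASP8 (r = 0.959) and CASP9 most opposite to it (r = -0.878).

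The calls depended on single arrays, as did those of all genes. When 1 array at a time was left out, XIAP ranged from -0.73 to -0.43 and CASP8 from -0.52 to -0.34, and each passed in 2 of the 6 fits (those lacking ING2 siRNA replicate 2 or control replicate 1). CASP6 ranged from -0.42 to -0.25 and passed in 1 (without ING2 siRNA replicate 2). In the 4 fits where XIAP and CASP8 did not pass, 2 or 3 genes of the whole array were called lower, against 1350 and 1631 in the other 2 fits and 924 with all arrays, so the loss was not particular to these genes. After cyclic loess XIAP had a change of -0.50 (limma adjusted p = 0.0595) and CASP8 of -0.38 (0.0515), and after quantile normalization -0.47 (0.0589) and -0.34 (0.0617), so neither passed. XIAP 206536_s_at passed under both (limma adjusted p = 0.0362 and 0.0420). With the mean of all its probe sets XIAP had a change of -0.35 (limma adjusted p = 0.0419), and with its most variable probe set, 225859_at, -0.66 (0.122, not past the threshold). CASP6 passed in 7 of 10 other settings, as did XIAP and CASP8.

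**Figure D5:**
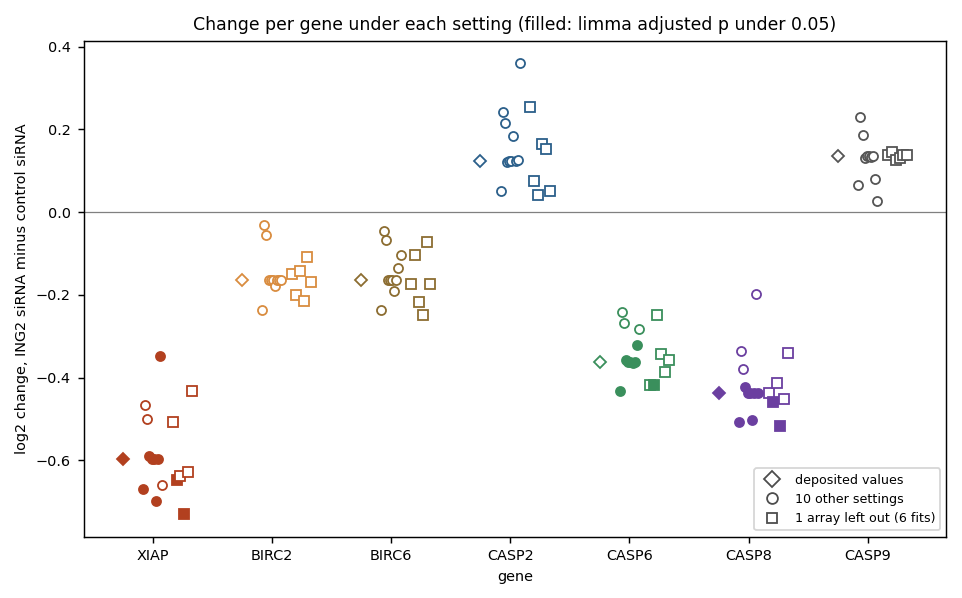
Log2 change, ING2 siRNA minus control siRNA (vertical axis), of the 7 genes (horizontal axis) in the deposited values (diamonds), under 10 other settings (circles) and with 1 array left out (squares); filled symbols passed the limma threshold. XIAP, CASP6 and CASP8 lie below 0 and CASP2 and CASP9 above 0 in every fit shown.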

How the data were processed

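Biotin-labelled cRNA from total RNA was hybridised to 6 one-colour 3′ expression arrays, per the labels. The authors deposited 1 intensity value per probe set and array on a linear scale, from 4.05 to 33803. Per the submitters' processing notes, tools included RMA and R 2.12. The sources used here do not give how linear values were made, or any background correction. From these, log2 was taken with no pseudocount and no filter. Of 54675 probe sets, 62 controls were left out. Genes were named through the platform annotation updated by gene identifier to RefSeq names, which matched 19735 of 19777 genes. Suffixes _s_at (10 of the 25 member probe sets) and _x_at (6) mark probe sets that can match several transcripts or similar sequences, so those values are less certain.

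Groups were compared with limma 3.58.1 (lmFit, eBayes) under R 4.3.3, as the ING2 siRNA mean minus the control siRNA mean, over all probe sets, and again over 1 probe set per gene, that with the highest mean. Adjusted p is by Benjamini-Hochberg over all features tested, and calls are at 0.05. The code was tested on simulated data. The number of arrays limits the precision. Members and gene lists were chosen with earlier results of these data known. All members are named; in each pathway list without a call, the 2 genes with the smallest p are named, and APAF1 and ROCK1 are given per array. Other settings are given in the closing section.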

Additional observations from a re-analysis of the deposited data

How the results depend on the processing

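The count of member probe sets called lower, 2 in the deposited values, was 4 after median centring, 1 after quantile normalization, 1 after cyclic loess, 1 with a pseudocount of 16, 4 with an intensity trend and robust eBayes, and 5 with array weights, where 1 was called higher. It was 0 to 3 with 1 array left out, while all probe sets called lower ranged from 210 to 2956. The count of genes called lower, 2 in the deposited values, was 0 after quantile normalization, 0 after cyclic loess, 1 when each gene took its most variable probe set by interquartile range, and 2 with the mean of all probe sets. It was 3 after median centring, with a pseudocount of 16, with dim probe sets left out, with an intensity trend and robust eBayes, and with array weights. With 1 array left out it was 0 to 3, while all genes called lower ranged from 2 to 1631. With the mean of all probe sets of a gene, CASP6 passed (-0.32), XIAP passed with a smaller change (-0.35, limma adjusted p = 0.0419) and CASP8 did not (-0.20, 0.111). With the most variable probe set XIAP did not pass (-0.66, limma adjusted p = 0.122). Pairs of probe sets without overlap, 4 in the deposited values, were 2 after quantile normalization and 2 after cyclic loess. The cause of these differences was not tested. The direction of all 7 genes held in all 16 other fits of the gene table, and ING2 passed in each of them.

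Values near 0 changed sign. After median centring they were -0.028 for CASP2 209812_x_at, -0.0072 for CASP2 34449_at and -0.044 for CASP9 240437_at. After quantile normalization they were 0.015 for BIRC6 233093_s_at, -0.013 for CASP2 34449_at and -0.069 for CASP9 240437_at. After cyclic loess they were -0.028 for CASP2 209812_x_at, -0.043 for CASP2 34449_at, -0.0011 for CASP8 1553306_at and -0.10 for CASP9 240437_at. With 1 array left out, XIAP 206537_at ranged from -0.19 to 0.042, XIAP 225858_s_at from -0.44 to 0.029, CASP2 226036_x_at from -0.13 to 0.12 and CASP9 240437_at from -0.062 to 0.078.

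Over all probe sets, calls were 1989 lower and 897 higher, against 2927 and 279 after median centring and 1720 and 308 after cyclic loess. Over all genes they were 924 lower and 716 higher, against 1450 and 260 after median centring and 622 and 944 after quantile normalization. With the replicate number as a block, 3 member genes were called lower, CASP6 being added (limma adjusted p = 0.0361), and 1878 genes were lower and 1630 higher. Deviations from the group means correlated by 0.263, 0.291 and -0.019 in same-numbered arrays and by -0.311 to 0.0996 in the others. The first 2 were the highest of all 9, but the third was under 0.1, and the labels name no shared culture or day, so pairing was not assumed.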
